A study of Mus musculus with 4 samples.

Results

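The genes described here were 49 genes whose products copy DNA or supply its building blocks, taken by symbol from the 23361 genes of the deposited table. All 49 were in the table and all 49 passed the filter on low values, so none is missing from the counts given here. They were read in Early T Lineage Progenitors (ETP), the most immature T lineage progenitors of the thymus, in 2 libraries from young mice aged 4 to 6 weeks and 2 libraries from old mice aged 72 weeks. All mice were female C57BL6 in the labels, and the cells were sorted from thymus as Lin- CD44+ CD25- CD117+ without further treatment. By the study's methods young C57BL/6J mice came from UCLA and the old mice from the National Institute on Aging colony, so age and source of the mice cannot be told apart. The study profiled these libraries to ask how age alters ETP. The sources do not say whether single or pooled animals gave each library, so p-values here measure only the spread between libraries, which may be technical.

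Replication of DNA starts when the origin recognition complex (ORC), Cdc6 and Cdt1 load the MCM helicase onto origins, while geminin (*Gmnn*) holds Cdt1 back to prevent a second round. Cdc45 and the GINS complex then switch the helicase on, primase lays down short RNA starts, and polymerases alpha, delta and epsilon extend the strands with the sliding clamp PCNA, which replication factor C (RFC) loads. RPA coats the single strands, Fen1 and DNA ligase 1 join the lagging strand pieces, and ribonucleotide reductase, thymidylate synthase and thymidine kinase make the nucleotides that S phase consumes. Many of these genes are switched on before S phase by transcription factors of the E2F family, and progenitors that expand in the thymus depend on them.

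Promoter sequence is shown because E2F sites are the textbook element that such genes share and that the choice of genes did not use. RefSeq windows on GRCm38.p6, from 250 bases before to 50 bases after an annotated start, were matched by symbol for 39 of the 49 genes. *Gmnn*, *Mcm4*, *Gins1*, *Gins2*, *Gins4*, *Prim2*, *Pole*, *Rfc2*, *Dscc1* and *Tipin* were not matched. A search of both strands for the E2F octamers TTTCCCGC, TTTGGCGC, TTTCGCGC and TTTGCCGC found a match in 15 of the 39 genes (38.5%), compared with 5.21% of 7619 tested genes and 2.61% of all 27025 genes with such windows. The 15 genes were *Orc1*, *Orc3*, *Cdc6*, *Cdt1*, *Mcm3*, *Mcm5*, *Mcm6*, *Mcm7*, *Gins3*, *Pola1*, *Pold1*, *Pold3*, *Pole2*, *Rfc3* and *Lig1*. The median GC content of the windows was 61.3% in the 39 genes and 60.7% in tested genes. The 200 bases before the start are printed 5′ to 3′ for 3 genes with octamers upstream, at chr1:128359706-128359905 on the minus strand, chr8:75109309-75109508 on the plus strand and chrX:93632156-93632355 on the minus strand. For comparison they are printed for 2 genes with no octamer in the window, at chr6:88898781-88898980 on the minus strand and chr7:102441495-102441694 on the plus strand. None of these stretches lies in an annotated exon of GENCODE M21, and capitals mark the octamers on either strand.
Mcm6: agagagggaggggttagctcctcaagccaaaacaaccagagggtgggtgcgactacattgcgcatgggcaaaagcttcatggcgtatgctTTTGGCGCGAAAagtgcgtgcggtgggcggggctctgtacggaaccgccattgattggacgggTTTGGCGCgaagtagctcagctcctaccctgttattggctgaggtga
Mcm5: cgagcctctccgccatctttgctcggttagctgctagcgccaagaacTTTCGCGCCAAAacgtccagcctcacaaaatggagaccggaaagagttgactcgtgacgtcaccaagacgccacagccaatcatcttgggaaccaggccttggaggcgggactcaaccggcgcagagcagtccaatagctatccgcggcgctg
Pola1: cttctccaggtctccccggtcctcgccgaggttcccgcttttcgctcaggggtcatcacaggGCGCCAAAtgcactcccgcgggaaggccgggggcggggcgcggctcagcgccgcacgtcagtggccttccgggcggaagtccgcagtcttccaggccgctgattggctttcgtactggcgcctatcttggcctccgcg
Mcm2: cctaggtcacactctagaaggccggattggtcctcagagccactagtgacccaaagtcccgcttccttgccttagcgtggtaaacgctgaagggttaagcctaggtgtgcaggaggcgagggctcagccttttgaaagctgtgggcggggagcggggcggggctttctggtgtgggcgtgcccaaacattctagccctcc
Rrm1: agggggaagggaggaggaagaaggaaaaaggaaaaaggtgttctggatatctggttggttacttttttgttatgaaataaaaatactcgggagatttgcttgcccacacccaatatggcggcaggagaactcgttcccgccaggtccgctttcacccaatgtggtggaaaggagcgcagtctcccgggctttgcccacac

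In *Mcm6* and in *Mcm5*, helicase subunits that act in the same ring, a pair of octamers on opposite strands shared 4 bases, and *Mcm6* held a further octamer nearer the start. The CCAAT box was found in 24 of the 39 genes (61.5%) and in 43.4% of tested genes. TTTGAA, the core of the element known from mitotic genes, was found in 5 of the 39 (12.8%) and in 14.2% of tested genes. The median log2 fold change from young to old ETP, described next, was -0.36 in the 15 genes with an octamer (range -0.65 to -0.19) and -0.36 in the 24 without (range -0.76 to -0.06). A match says only that the letters are present. A missing match does not show that a gene lacks an E2F site, since only the exact octamers were searched.

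**Figure D1:**
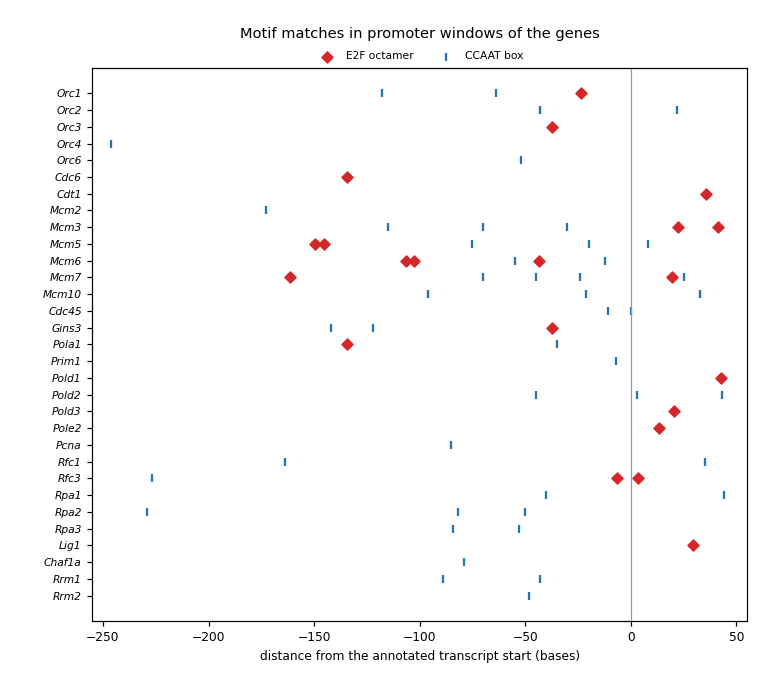
Each row is a replication or nucleotide supply gene with a match, and the horizontal axis is the distance in bases from the annotated start, running from 250 bases before it (negative values) to 50 bases after it. Red diamonds mark E2F octamers, found in 15 of 39 genes on both sides of the start, and blue ticks mark CCAAT boxes, found in 24 of 39 genes.

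The libraries held 4839341 to 16658864 fragments, and in both ages replicate 1 was the deeper one. The genes of the sort were present at both ages. *Kit*, which encodes CD117, was at 763.8 and 1096 normalized CPM in young and 935.9 and 945.1 CPM in old ETP, and *Cd44* was at 496.2 and 517.2 CPM in young and 636.2 and 519.2 CPM in old ETP. *Il2ra*, which encodes the excluded CD25, was far lower, at 26.3 and 39.9 CPM in young and 31.8 and 22.9 CPM in old ETP. Here CPM are fragments scaled to a common library size by TMM, and values by library are always given as replicates 1 and 2.

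Every one of the 49 replication and nucleotide supply genes had a lower estimate in old than in young ETP, but none passed edgeR when age alone was fitted. In edgeR the log2 fold change from young to old ran from -0.76 for the primase subunit *Prim1* to -0.03 for the GINS subunit *Gins4*, with a median of -0.37, whereas the median of all 10080 tested genes was -0.03 and 53.4% of them had a lower and 46.6% a higher estimate. No gene of the 49 was called higher or lower at an adjusted p of 0.05, where 0.0% of tested genes were called in either direction, and the adjusted p of the 49 ran from 0.852 to 0.999. At an unadjusted p under 0.05 in edgeR, 1 of the 49 was lower and 0 were higher, beside 0.913% lower and 4.65% higher of tested genes. DESeq2 also called 0 of the 49, beside 0.149% of tested genes called lower and 2.08% called higher.

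The size of the difference was moderate. The mean CPM in young was 1.02 to 1.70 times that in old ETP, with a median of 1.29. Summed over the 49 genes, the level was 6198 and 5177 CPM in young and 4819 and 3706 CPM in old ETP, that is 5687 ± 722 and 4263 ± 787 (SD, n = 2 libraries), a ratio of 1.33. The sums of the ages did not overlap. For single genes, both young libraries lay above both old libraries in 18 of 49 genes (36.7%), compared with 15.5% of tested genes, and the reverse order was found in 0 of 49, compared with 16.1%. On the TPM scale, in which the authors' length-scaled FPKM were rescaled to a common sum per library, both young libraries lay above both old ones in 29 of 49 genes, compared with 18.3% of tested genes, and the reverse was found in 0 of 49, compared with 11.4%.

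The size rested on which libraries were compared. Without young replicate 1, 35 of 49 estimates were below 0 and the median was -0.17, and without old replicate 2 it was 42 of 49 with a median of -0.20. Without young replicate 2 the counts and medians were 46 of 49 and -0.58, and without old replicate 1 they were 43 of 49 and -0.64. In whole libraries of sorted cells, fewer cells in S phase and less RNA of these genes per cell cannot be told apart.

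**Figure D2:**
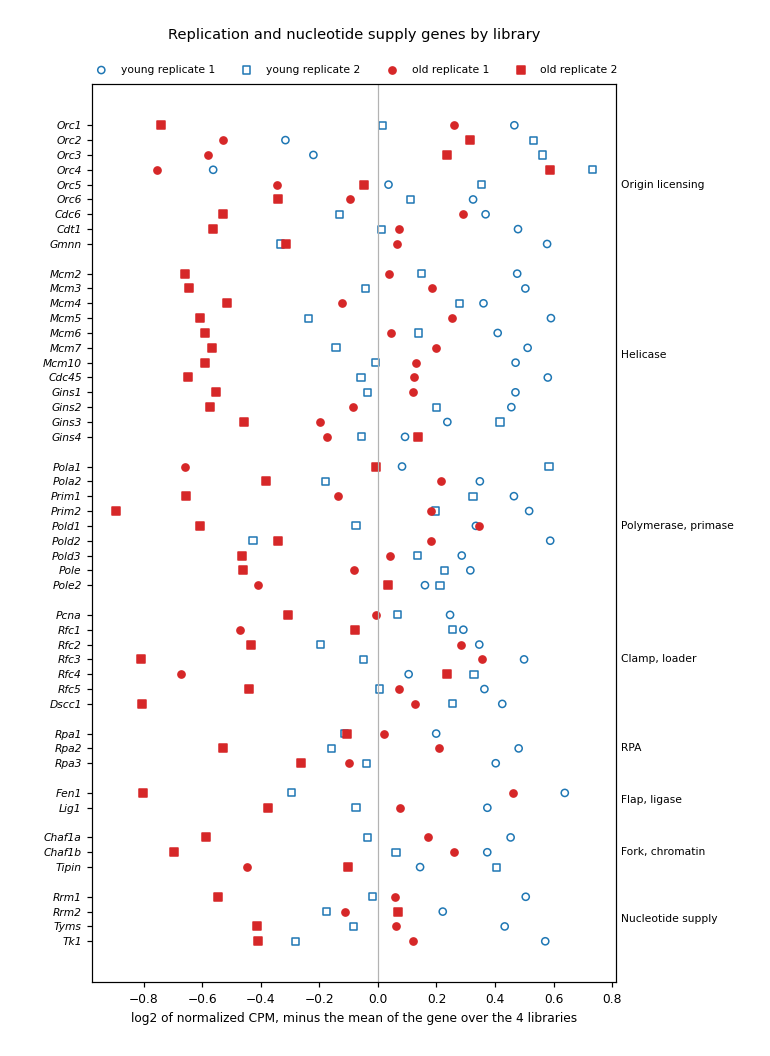
Each row is a gene, grouped by role, and the horizontal axis is log2 of normalized CPM minus the mean of that gene over the 4 libraries. Open blue symbols are young and filled red symbols old ETP, with circles for replicate 1 and squares for replicate 2. Young replicate 1 is the highest library in 38 of 49 genes and old replicate 2 the lowest in 35 of 49.

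Among the 9 genes of origin licensing (*Orc1* to *Orc6*, *Cdc6*, *Cdt1* and *Gmnn*), the median log2 fold change was -0.34 and the range -0.47 to -0.16. The ages did not overlap, with young higher, in 2 genes (22.2%), *Orc5* and *Orc6*, beside 15.5% of tested genes. That share of tested genes also stands beside the counts of the other roles below. *Orc6*, the smallest subunit of the origin recognition complex, was at 52.5 and 45.3 CPM in young and 39.2 and 33.1 CPM in old ETP. Both young libraries were above both old ones, and the log2 fold change was -0.43 with a standard error (SE) of 0.28. *Gmnn*, the inhibitor of Cdt1, was at 44.8 and 23.9 CPM in young and 31.4 and 24.2 CPM in old ETP. Here only young replicate 1 stood above the rest, the log2 fold change was -0.31 (SE 0.41), and without young replicate 1 it turned to 0.22.

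*Orc2*, *Orc3* and *Orc4*, core subunits of ORC, differed more between libraries of an age than between ages. *Orc4* was at 32.1 and 78.8 CPM in young and 28.1 and 71.2 CPM in old ETP, and *Orc3* at 168.8 and 290.6 CPM in young and 131.7 and 231.6 CPM in old ETP. In both genes replicate 2 was the higher library at either age, and each old library was below the young library of its own number. *Orc2* and *Orc5* had the same order. *Orc1*, *Cdc6* and *Cdt1*, the regulated factors of loading, had replicate 1 above replicate 2 at both ages, and *Cdt1* was at 106.2 and 76.9 CPM in young and 80.1 and 51.6 CPM in old ETP.

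The 12 helicase genes had a median of -0.47 and a range of -0.64 to -0.03, and the ages did not overlap in 5 of them (*Mcm2*, *Mcm4*, *Mcm6*, *Gins2* and *Gins3*). *Mcm4*, a subunit of the helicase ring, was at 380.5 and 359.1 CPM in young and 272 and 207.4 CPM in old ETP. The young libraries lay close together and above both old ones, and the log2 fold change was -0.62 (SE 0.28, unadjusted p = 0.0672 and adjusted p = 0.977 in edgeR). *Mcm6*, the ring subunit with the highest level, was at 707.3 and 585.9 CPM in young and 549.6 and 353.4 CPM in old ETP, and its log2 fold change was -0.52 (SE 0.33). *Mcm2* was at 305.5 and 243.3 CPM in young and 225.3 and 139 CPM in old ETP, with a log2 fold change of -0.59 (SE 0.34). In *Mcm2* and *Mcm6* old replicate 1 lay just under young replicate 2, and old replicate 2 lay well under all others.

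The other subunits of the ring, *Mcm3*, *Mcm5* and *Mcm7*, had log2 fold changes of -0.43, -0.35 and -0.35, and in each of them old replicate 1 lay above young replicate 2. Among the factors that switch the ring on, *Gins2* and *Gins3* were at -0.64 each, *Cdc45* at -0.50, *Mcm10* at -0.43 and *Gins1* at -0.41. *Gins4* had the smallest difference of the 49 genes, at 58.6 and 52.9 CPM in young and 48.7 and 60.3 CPM in old ETP. Its highest library was an old one, and its log2 fold change of -0.03 (SE 0.26) equalled the median of all tested genes to 2 decimals. With a library left out, the median of the helicase genes ran from -0.81 (without old replicate 1) to -0.16 (without young replicate 1).

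The 9 polymerase and primase genes had a median of -0.40 and a range of -0.76 to -0.16, and the ages did not overlap in 6 of them (*Pola1*, *Prim1*, *Prim2*, *Pold3*, *Pole* and *Pole2*). *Prim1*, the catalytic subunit of primase, was at 79.9 and 72.6 CPM in young and 52.7 and 36.8 CPM in old ETP. Both young libraries stood clear of both old ones, the log2 fold change was -0.76 (SE 0.29), and it was the single gene of the 49 with an unadjusted p under 0.05 (unadjusted p = 0.0419 and adjusted p = 0.852 in edgeR). *Pola1*, the catalytic subunit of polymerase alpha, was at 123.4 and 174.8 CPM in young and 73.8 and 115.9 CPM in old ETP. Here replicate 2 was the higher library at each age, the ages were still apart, and the log2 fold change was -0.65 (SE 0.35). *Pola1* and *Prim1* encode parts of a single enzyme, and its other parts, *Prim2* and *Pola2*, were at -0.62 and -0.16.

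*Pole*, the catalytic subunit of polymerase epsilon, was at 177.4 and 166.7 CPM in young and 134.8 and 103.5 CPM in old ETP, with a log2 fold change of -0.53 (SE 0.27). *Pold1*, the catalytic subunit of polymerase delta, was at 60.2 and 45.3 CPM in young and 60.7 and 31.4 CPM in old ETP, with a log2 fold change of -0.19 (SE 0.40). In *Pold1* the highest library was an old one. These estimates lie within 1 SE of *Pold1* of each other, and their difference was not tested. *Pold2* and *Pold3*, accessory subunits of polymerase delta, were at -0.23 and -0.40, and *Pole2* at -0.36. The median of the polymerase and primase genes ran from -0.64 (without old replicate 1) to -0.22 (without old replicate 2).

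The 7 genes of the sliding clamp and its loader had a median of -0.35 and a range of -0.59 to -0.13, and the ages did not overlap in 3 of them (*Pcna*, *Rfc1* and *Dscc1*). *Pcna*, the clamp itself, was at 337.7 and 298.2 CPM in young and 283.1 and 230.3 CPM in old ETP, with a log2 fold change of -0.31 (SE 0.27). The gap between the nearer young and old libraries was smaller than the gap within either age. *Rfc1*, the large subunit of the clamp loader, was at 202 and 196.9 CPM in young and 119.1 and 156.4 CPM in old ETP. Its young libraries were nearly equal and both above the old ones, with a log2 fold change of -0.53 (SE 0.27). *Rfc2* to *Rfc5*, the small subunits, ran from -0.13 for *Rfc2* to -0.37 for *Rfc4*, and in all of them the ages overlapped. *Dscc1*, a subunit of an alternative loader used in sister chromatid cohesion, was at 15.3 and 13.6 CPM in young and 12.5 and 6.54 CPM in old ETP, the last of which was 30 fragments, the fewest behind any value of the 49 genes. The median of the clamp and loader genes was -0.20 without old replicate 2.

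The 3 subunits of RPA had the median -0.31 and ran from -0.38 to -0.09. *Rpa3*, the smallest subunit, was at 37 and 27.2 CPM in young and 26.1 and 23.3 CPM in old ETP, with a log2 fold change of -0.38 (SE 0.32). It was the single RPA gene whose ages did not overlap, and young replicate 2 and old replicate 1 were close. *Rpa1* and *Rpa2*, the subunits of the main body of the complex, were at -0.09 and -0.31. Without young replicate 1 the median of this group turned to 0.05.

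In lagging strand maturation *Lig1*, the ligase that seals the joined pieces, was at 196.7 and 144.2 CPM in young and 160.1 and 117 CPM in old ETP, with a log2 fold change of -0.30 (SE 0.31). *Fen1*, the flap nuclease, was at 62.7 and 32.8 CPM in young and 55.5 and 23.1 CPM in old ETP, with a log2 fold change of -0.28 (SE 0.53). In *Lig1* and *Fen1* replicate 1 was above replicate 2 at each age by more than the ages differed, and their ages overlapped. Their median of -0.29 turned to 0.10 without young replicate 1 and to 0.03 without old replicate 2.

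*Tipin*, a partner of Timeless in the complex that steadies the fork, was at 92.2 and 110.5 CPM in young and 61.2 and 77.8 CPM in old ETP. Both young libraries were above both old ones, with a log2 fold change of -0.55 (SE 0.27). *Chaf1a* and *Chaf1b*, which encode subunits of the chromatin assembly factor that places histones on new DNA, were at -0.39 and -0.36, and in each old replicate 1 lay above young replicate 2. The median of these 3 genes was -0.39, and it ran from -0.79 (without old replicate 1) to -0.09 (without old replicate 2).

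In the 4 genes of nucleotide supply the median was -0.34, the range -0.48 to -0.06, and the ages overlapped in all 4. *Rrm1*, the large subunit of ribonucleotide reductase, was at 364.7 and 253.9 CPM in young and 267.7 and 176 CPM in old ETP, with a log2 fold change of -0.48 (SE 0.34). Its old replicate 1 lay above its young replicate 2. *Rrm2*, the small subunit whose level limits the enzyme, was at 91.2 and 69.2 CPM in young and 72.3 and 81.9 CPM in old ETP, with a log2 fold change of -0.06 (SE 0.27). Both old libraries of *Rrm2* lay between the young ones. *Tyms*, thymidylate synthase, and *Tk1*, thymidine kinase 1, were at -0.35 and -0.33. Without young replicate 1 the median of the group turned to 0.04.

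**Figure D3:**
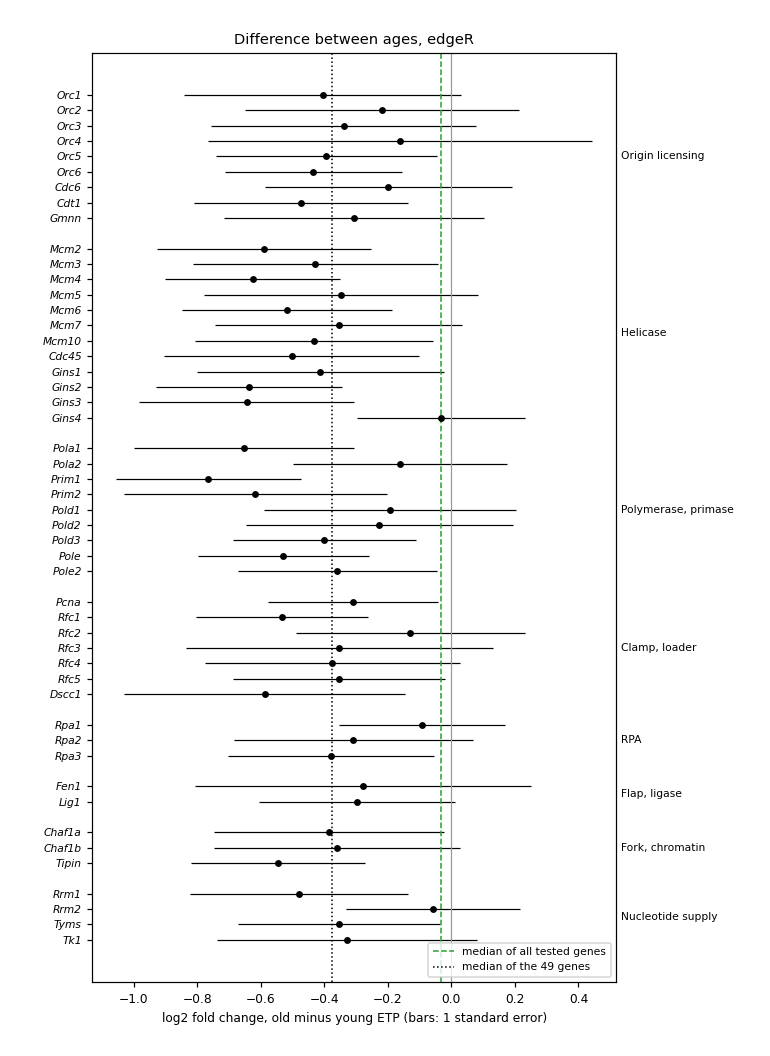
Each point is the log2 fold change of a gene from young to old ETP in edgeR, with bars of 1 SE, and genes are grouped by role. All 49 points lie below 0, with a median of -0.37 (dotted line) against -0.03 for all tested genes (dashed line), and the bars of many genes cross the dashed line.

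Levels between genes were compared per transcript length, in TPM. They rest on the transcript lengths that the authors used, which were not checked here. *Pcna* was the highest of the 49, at 556.7 and 599.7 TPM in young and 452.5 and 425.6 TPM in old ETP, and *Mcm6* followed at 446.1 and 461.2 TPM in young and 338.4 and 256.3 TPM in old ETP. *Pcna* was above *Mcm6* in each library, although their ranges over the 4 libraries overlapped. *Mcm7* (mean 216 TPM), *Mcm3* (190.9 TPM) and *Mcm4* (167.2 TPM) came next, with overlapping ranges. The lowest by the mean over libraries was *Gins3*, at 14.4 and 20.3 TPM in young and 10.4 and 10.2 TPM in old ETP, and the median of the 49 means was 64.4 TPM. In young replicate 2 *Cdc6* (16.9 TPM) and *Orc1* (19.7 TPM) were below it.

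Genes of 1 complex were not at 1 level of RNA. The MCM ring takes its protein subunits in equal numbers. In RNA, the highest of *Mcm2* to *Mcm7*, *Mcm6*, was 2.97 to 4.44 times the lowest, *Mcm5*, in TPM within a library. RNA and protein are different measures, and protein was not measured in these libraries. In the GINS complex *Gins2* had a mean of 142.6 TPM and *Gins3* 13.8 TPM, with *Gins4* (89.2 TPM) and *Gins1* (53.7 TPM) between them, although in old replicate 2 *Gins4* (101.6 TPM) was above *Gins2* (96.3 TPM). Among ORC genes the mean ran from 17.2 TPM for *Orc5* to 64.4 TPM for *Orc3*. The mean of *Rrm1* was 128.2 TPM and that of *Rrm2*, its partner, 73.8 TPM.

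**Figure D4:**
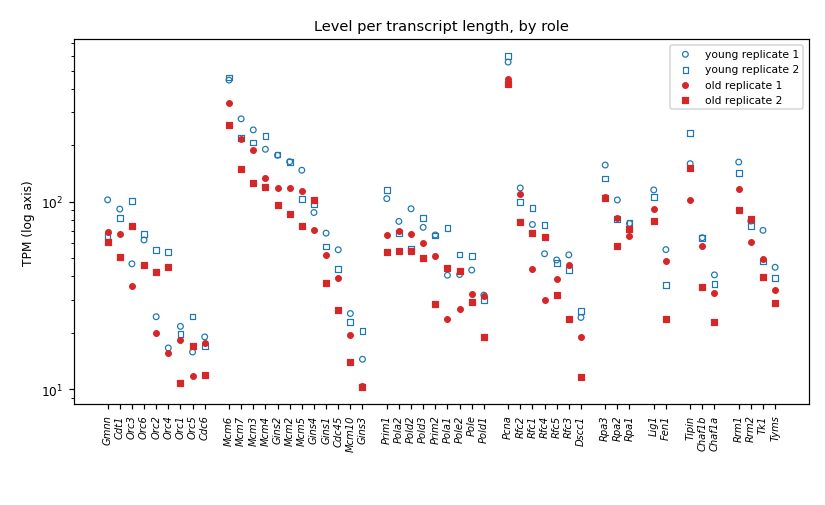
The vertical axis is TPM on a log scale and genes are grouped by role, sorted by mean level within a group. Open blue symbols are young and filled red symbols old ETP, with circles for replicate 1 and squares for replicate 2, and the genes run from *Gins3* at 13.8 TPM to *Pcna* at 508.6 TPM (means over 4 libraries).

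The 4 libraries were ordered in much the same way from gene to gene. Young replicate 1 was the highest library in 38 of 49 genes (20.2% of tested genes), and old replicate 2 the lowest in 35 of 49 (31.5% of tested genes). Old replicate 1 was below young replicate 1 in 48 of 49 genes but below young replicate 2 in 23 of 49, beside 49.7% and 49.4% of tested genes. Old replicate 2 was below young replicate 1 in 44 of 49 and below young replicate 2 in 44 of 49, beside 51.4% and 55.8%. The comparison of old replicate 1 with young replicate 2 was the one in which the genes showed no common direction.

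The order of replicates moved with base composition. Replicate 1 was above replicate 2 at both ages in 37 of the 49 genes, beside 37.2% of tested genes. Replicate 2 was above replicate 1 at both ages in 8 of the 49, beside 39.15% of tested genes. These 8 were *Orc2*, *Orc3*, *Orc4*, *Orc5*, *Pola1*, *Pole2*, *Rfc4* and *Tipin*. Across the 49 genes the GC content of the longest protein coding transcript correlated with the log2 difference of replicate 1 from replicate 2 at r = 0.67 (Spearman 0.65) in young and r = 0.64 (Spearman 0.59) in old ETP. Across the 9252 of 10080 tested genes with a value, r was 0.44 and 0.45 (Spearman 0.50 and 0.48). Transcript length correlated with the same differences at Spearman -0.42 in young and -0.30 in old ETP across tested genes. Across the 49 genes it was -0.11 and 0.02. *Orc4*, with the lowest GC content of the 49 (36.8%), had 0.41 and 0.39 times the CPM in replicate 1 that it had in replicate 2 of young and old ETP, whereas *Fen1* (53.8%) had 1.91 and 2.40 times. With the fold change between ages, GC content correlated at r = 0.18 (Spearman 0.24) across the 49 genes and r = 0.17 (Spearman 0.29) across tested genes. These correlations are across genes that share the same 4 libraries and are descriptions. The part of base composition in the level of any gene was not tested.

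**Figure D5:**
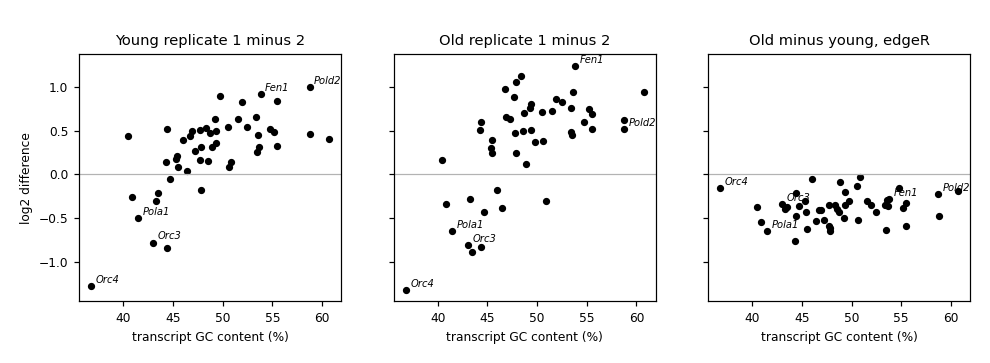
Each point is 1 of the 49 genes, the horizontal axis is the GC content of its transcript in percent, and the vertical axis is a log2 difference, of replicate 1 from replicate 2 in young ETP (left), the same in old ETP (middle) and of old from young ETP in edgeR (right). The points slope upward in the left and middle panels, at r = 0.67 and 0.64, and little in the right panel, at r = 0.18.

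Other genes of the pathway were listed from textbook knowledge. Of 38 tested replication genes outside the 49, 31 (81.6%) had a lower and 7 a higher estimate in old ETP, beside 53.4% lower of all tested genes, with a median of -0.29, and none was called or reached an unadjusted p under 0.05 in edgeR. *Exo1*, a nuclease of repair and flap processing, was at 63.7 and 60.5 CPM in young and 45.3 and 25.5 CPM in old ETP (log2 fold change -0.80, SE 0.35, and -0.48 without old replicate 2 but -1.25 without old replicate 1). *Cdc7*, the kinase that triggers origin firing, was at 51.7 and 54.5 CPM in young and 35.7 and 35.1 CPM in old ETP (log2 fold change -0.58, SE 0.26). In *Exo1* and *Cdc7* the ages did not overlap. In the other direction, *Dna2*, a helicase and nuclease of flap removal, was at 42.8 and 51.9 CPM in young and 54.3 and 79.3 CPM in old ETP (0.49, SE 0.30, and 0.17 without old replicate 2), and *Poldip3*, a partner of polymerase delta, at 184.6 and 152.8 CPM in young and 228 and 195 CPM in old ETP (0.33, SE 0.27, and 0.20 without young replicate 2).

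Of 41 further nucleotide genes, 32 had a lower and 9 a higher estimate, with a median of -0.30, and none was called. *Dctd*, which makes the substrate of thymidylate synthase, was at 63.5 and 68.2 CPM in young and 45.2 and 32.7 CPM in old ETP, with a log2 fold change of -0.75 (SE 0.29, unadjusted p = 0.0422 and adjusted p = 0.854 in edgeR). *Samhd1*, which breaks down deoxynucleotides, was at 219 and 285.8 CPM in young and 317.4 and 678.4 CPM in old ETP, with a log2 fold change of 0.98 (SE 0.43, adjusted p = 0.977 in edgeR). Without old replicate 2, in which it was highest, the log2 fold change of *Samhd1* was 0.31. *Mthfd2*, a mitochondrial enzyme of folate metabolism, was at 26 and 8.81 CPM in young and 36.5 and 32.5 CPM in old ETP, with a log2 fold change of 0.97 (SE 0.54), and young replicate 2 was the library that stood apart. The value was 0.41 without young replicate 2 and 1.97 without young replicate 1.

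Mitotic genes served as the nearest comparison, since they belong to the next phase of the cycle. Of 29 tested mitotic genes 28 had a lower estimate in old ETP, with a median of -0.35, close to that of the replication genes, and none was called. The libraries were ordered otherwise, with sums of 3906 and 2604 CPM in young and 2052 and 2803 CPM in old ETP, so that the ages overlapped in the sum. Both young libraries lay above both old ones in 5 of 29 mitotic genes (17.2%), beside 15.5% of tested genes. In the replication and nucleotide supply genes it was 18 of 49 (36.7%). Without young replicate 1 the median of the mitotic genes turned to 0.15, with 9 of 29 estimates below 0, whereas that of the replication genes was -0.17 with 35 of 49. Without young replicate 2 the medians were -0.69 in the mitotic and -0.58 in the replication genes. Without old replicate 2 they were -0.26 and -0.20, and without old replicate 1 they were -0.31 and -0.64. No test of the difference between these lists was made.

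Markers of other cell types also differed between the libraries, although edgeR called none of them. Of 17 dendritic cell genes 15 were tested, all 15 estimates were higher in old ETP with a median of 3.63, and DESeq2 called 13 of them higher. Their summed level was 1426 and 2054 CPM in young and 7574 and 23441 CPM in old ETP, and it was highest in old replicate 2, the library in which most of the 49 genes were lowest. Without that library the median of the dendritic genes was 2.39. *Xcr1* and *Clec9a*, which define a dendritic subset, were at 10.2 and 26.8 CPM and at 5.44 and 16.3 CPM in young and at 96.3 and 618.1 CPM and at 52.6 and 426.3 CPM in old ETP, and *Flt3* in the same list is also known from early progenitors. Of 16 genes of NK and innate lymphoid cells 9 were tested, 8 of them with a higher estimate (median 2.64, and 0.55 with 2 of 9 lower without old replicate 2), DESeq2 called 5 of them higher, and their sums were 99 and 196.4 CPM in young and 252.9 and 717.4 CPM in old ETP. *Tbx21*, a defining factor of NK cells, was at 0 in both young libraries and at 1.91 and 3.27 CPM in old ETP. These old values rest on 23 and 15 fragments, and the gene was not tested.

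Myeloid genes, with *Mpo* as the most abundant, summed to 2105 and 1363 CPM in young and 1549 and 741.8 CPM in old ETP, with 6 of 9 tested genes lower and a median of -0.09 that ran from -1.63 without old replicate 1 to 1.58 without young replicate 1. They had the same order of libraries as the sum of the replication genes but for the middle pair. *S100a9* in this list was at 0 in both libraries of replicate 2. Genes of mature T cells summed to 94.3 and 74.6 CPM in young and 103.5 and 134.4 CPM in old ETP. Both old sums lay above both young sums. Of these genes, 3 of 5 tested were higher, 1 of them called by DESeq2. Their median of 0.13 ran from -0.28 to 0.69 with a library left out. Genes of B cells summed to 27.7 to 41.4 CPM, with 1 gene tested (-0.15). *Ebf1* among them, which was not tested, had 12 and 1 fragments in young and 0 in both old libraries. Erythroid genes summed to 16.6 to 23.4 CPM, with 1 of 2 tested genes lower. The lineage antibodies that the study names for the sort were directed at NK-1.1, TER-119, B220, IgM, CD11b, Gr-1, CD8, CD3, TCRβ and TCRγδ. These are antigens of NK, erythroid, B, myeloid and T cells. The part of these other cell types in the lower estimates of the 49 genes was not tested.

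Some of the 49 genes share sequence with others. In GENCODE M21 on GRCm38, 19 of the 49 overlap an exon of another annotated gene and 12 overlap one that is itself in the table, such as *Mcm7*, which hosts *Mir25* and *Mir93*, *Orc6* with *Vps35* and *Rfc4* with *Eif4a2*, both on the opposite strand. No source used here states whether counting used strand, so fragments of such pairs cannot be told apart. *Pcna* and *Tyms* also have annotated pseudogenes to which fragments could be split.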

How the data were processed

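Total RNA of sorted ETP was measured in 4 libraries, built by the authors with a Nugen Ovation kit, which amplifies cDNA, and read from both ends. The authors aligned reads with STAR 2.3.0 to GRCm38 (mm10), and the submitters' processing notes add HTSeq 0.5.4p3, DESeq 1.12.1, Cufflinks 2.1.1 and Cuffdiff. The deposited table, in the layout of Cuffdiff, holds estimated counts of fragments per gene made by the authors. It also holds FPKM, the fragments that the authors scaled by transcript length. It names the old condition 20m, while the labels give 72 weeks, and it numbers the libraries of an age 0 and 1, called replicates 1 and 2 here. Which sample of an age each number belongs to is not settled by the labels.

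Estimated counts were rounded, scaled by TMM and tested with edgeR 4.0.16 in R 4.3.3 (quasi-likelihood, age as the only term, Benjamini-Hochberg adjustment, threshold 0.05) over 10080 genes, those that reached an FPKM of 1 in 2 or more libraries. At 4839341 to 16658864 fragments per library, a count of 0 allows 0.176 to 0.654 CPM (3 counts, counting error only). With 2 libraries per age, an exact two-sided permutation test cannot go below 0.333 and was not used. The libraries of an age differed by more than sampling noise. Alternatives were DESeq2 1.42.0, other scalings, filters and units (limma 3.58.1), a replicate term and leaving out each library, with TPM added after the data were seen. The members and lists were chosen with earlier results of these data known. Values by library are given, by role, for the gene with the smallest p and the one with the highest mean FPKM, for genes with an unadjusted p under 0.05, called in any fit or against the median, and for the 2 smallest p per direction of the other lists. *Orc1* to *Orc4*, *Cdt1*, *Gins3*, *Gins4*, *Pold1*, *Pole*, *Dscc1*, *Fen1*, *Rrm2*, *Xcr1* and *Clec9a* were added after their values were seen. Some items that the rule names are not reported here.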

Additional observations from a re-analysis of the deposited data

How the results depend on the processing

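All 49 genes had a lower estimate in old ETP under each of the 9 alternatives that kept all 4 libraries. Counts of called genes over the whole table moved with the tool: 0 higher and 0 lower in edgeR became 210 and 15 in DESeq2 and 474 and 34 without a filter on low values, and 0 to 218 higher and 0 to 3 lower with a library left out, the largest without old replicate 1, and none of the 49 was among them. The median of the 49 was -0.61 in limma on log2(FPKM + 1) and -0.69 on log2(FPKM + 0.1), where the median of all genes was also lower, at -0.27 and -0.33, and -0.48 on log2(TPM + 1), where it was -0.12. With a library left out it ran from -0.64 to -0.17, in fits that take the spread of the lone library from the intact age. With a library left out, the median of the helicase genes ran from -0.81 to -0.16, that of the RPA genes ran from -0.58 to 0.048, that of the flap and ligase genes from -0.77 to 0.10, that of the nucleotide genes from -0.64 to 0.042 and the value of *Gmnn* from -0.69 to 0.22. The RPA, flap and ligase, and nucleotide medians and the value of *Gmnn* turned above 0 without young replicate 1. The flap and ligase genes also did so without old replicate 2 (0.027). The median of the helicase genes stayed below 0 whichever library was left out. The causes were not tested. The labels do not say that a replicate number marks a shared animal or batch, so no pairing was assumed. Deviations of libraries of equal number from their age means correlated at 0.73 over 10080 genes, and with the replicate block 578 genes were called higher and 199 lower. Of the 49, 5 were then called lower (*Mcm2*, *Mcm4*, *Mcm6*, *Pola1* and *Prim1*), with adjusted p from 0.0213 to 0.0338 in edgeR. Depth limits values of the lowest genes, such as the 30 fragments of *Dscc1* in old replicate 2.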
